A study of Mus musculus with 6 samples.

Results

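Imprinted genes are expressed mainly from the copy inherited from 1 parent. The list examined here holds 41 of them, named gene by gene, and all 41 are among the 24062 gene symbols counted in mouse embryo heads at embryonic day 8.5. By the parental copy they are known to use, 16 are maternally expressed, 23 are paternally expressed, and 2, Gnas and Grb10, use either copy depending on tissue or transcript. The libraries measure total expression and hold no information on alleles. PolyA-selected RNA was sequenced from C57BL/6 heads with 3 genotypes at Prdm15, a zinc finger gene: homozygous mutants (tm1a-/-), heterozygotes (tm1a+/-) and wild type (tm1a+/+), with 2 libraries each. The tm1a allele is a knockout-first cassette insertion, carried by the mutants and heterozygotes, and the labels do not say how many litters were used, and the p-values below therefore reflect only how far these 6 libraries spread, part of which may be technical.

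At most imprinted loci a control region carries DNA methylation from only 1 of the gametes, and this mark sets which copy is transcribed for several neighbouring genes at once. Many such loci hold genes of both kinds, so that a paternally expressed gene lies beside a maternally expressed one. Imprinted genes are known as regulators of embryonic growth. Igf2, H19 and Dlk1 are known for high levels in embryonic mesoderm, endoderm and extraembryonic tissue, while Ndn, Magel2, Peg13 and Nnat are known from neural tissue. These genes are examples and do not split the list by tissue. Members were not grouped by tissue in the results below.

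Reads assigned to genes numbered 29412227 to 40439234 per library. The count files attached to mutant replicate 1 and wild-type replicate 2 carry each other's titles. Each count file shared its zeros with exactly 1 titled column of the deposited RPKM table (0 genes differing), and that column gives the sample used below. With the files kept as attached, 0 genes passed in mutant against wild type by edgeR's quasi-likelihood test (318 at an unadjusted p under 0.05, of which 0 were imprinted members), so every call below rests on the titles. Prdm15 itself stood at 4.16 and 5.04 RPKM in mutant, 4.47 and 5.01 in heterozygous and 5.56 and 5.14 in wild-type libraries (log2 fold change -0.21, SE 0.12, adjusted p = 0.221 in mutant against wild type). Whole-gene counts of an insertion allele do not check the genotype labels. Xist was high in the mutant libraries and wild-type replicate 2 (32299 to 47887 reads) and low in the heterozygous libraries and wild-type replicate 1 (8 to 11 reads). Between mutant and heterozygous libraries, high Xist thus cannot be told apart from genotype except through the wild-type libraries.

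Summed RNA levels of several tissue marker lists differed between genotypes. They are set out first because they accompany the comparisons below. The marker lists were chosen with earlier results of these data known. The summed level of 18 visceral endoderm markers, genes of the outer yolk sac layer such as Afp, Ttr and Apoa1, was 5598 and 4674 CPM (reads scaled to library size) in mutant, 3088 and 2239 in heterozygous and 162 and 174 in wild-type libraries. Of these Spp2 had 0 reads in both wild-type libraries, and 743 and 437 reads in mutant libraries. The 10 heart markers summed to 1842 and 1041 CPM in mutant, 1677 and 2725 in heterozygous and 222 and 49.3 in wild-type libraries. The 12 neural plate markers, which include the forebrain gene Otx2, summed to 404 and 406 CPM in mutant, 626 and 702 in heterozygous and 912 and 811 in wild-type libraries. These markers of the dissected head were thus present throughout and lowest in mutants. Head mesenchyme (8 genes) summed to 448 and 520 CPM in mutant, 411 and 414 in heterozygous and 317 and 357 in wild-type libraries. Endothelium (7 genes) gave 226 to 352 CPM over the 6 libraries. Erythroid markers (7 genes) summed to 32.4 and 14 CPM in mutant, 7.43 and 238 in heterozygous and 169 and 249 in wild-type libraries. Trunk and tailbud markers (10 genes) summed to 88.1 and 268 CPM in mutant, 57.8 and 71.5 in heterozygous and 51.1 and 19.4 in wild-type libraries. Trophoblast markers (12 genes) summed to 19.7 and 20.5 CPM in mutant, 10.8 and 13 in heterozygous and 4.3 and 56.7 in wild-type libraries. Among them Psg21 and Ctsq were at 0 in every library. Of the 6 that could be tested in mutant against wild type, Esx1 rose (log2 fold change 6.88) and Elf5 fell (-1.65). Decidua markers (9 genes) reached 337 CPM in wild-type replicate 2 and 120 CPM in mutant replicate 2, and 2.21 to 7.35 CPM in the other libraries. In bulk RNA, fewer cells of a type and less RNA per cell cannot be told apart. The part of the tissue makeup in the results on imprinted genes was not tested.

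**Figure D1:**
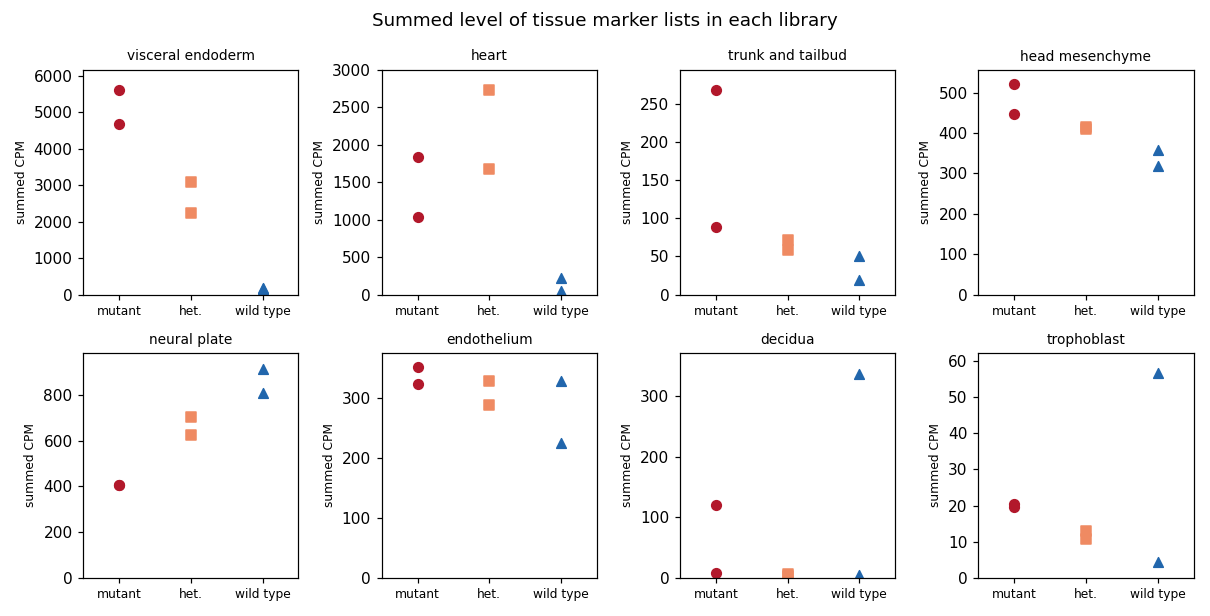
Summed CPM of 8 tissue marker lists (y axis, from 0) in each library, with 2 libraries per genotype as points. The visceral endoderm sum was 5598 and 4674 CPM in mutant and 162 and 174 CPM in wild-type libraries, while the neural plate sum was 404 and 406 CPM in mutant and 912 and 811 CPM in wild-type libraries.

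The first comparison asks how imprinted genes differ between mutant and wild-type heads. Of 40 members tested, 20 rose, 6 fell and 14 did not pass, beside 30.6% of all 15187 genes tested (17.1% higher and 13.6% lower). The median log2 fold change was 0.56 over the members tested and -0.02 over all genes. Among the 16 maternally expressed members 10 rose and 2 fell, with a median of 1.21. Among the 22 paternally expressed members tested 10 rose and 3 fell, with a median of 0.29. The 2 mutant and 2 wild-type libraries did not overlap in RPKM in 33 of the 40 members tested (82.5%), beside 71.1% of all genes tested, so that lack of overlap alone does not set a member apart. The remaining member, Snrpn, had 0 to 5 reads per library and was not tested. Adjusted p-values come from edgeR's quasi-likelihood test over all genes with Benjamini-Hochberg adjustment at 0.05. The member count was 16 without wild-type replicate 1, 17 without mutant replicate 1, 19 without wild-type replicate 2, 20 without mutant replicate 2 and 24 without either heterozygous library, and 16 with a term for high Xist. The 13 members Cdkn1c, Dlk1, H19, Igf2, Igf2r, Meg3, Mirg, Peg10, Peg13, Phlda2, Rian, Sgce and Slc22a18 passed under all 13 alternatives other than the files as attached. The authors' deposited false discovery rates were above 0.05 for Rtl1 (0.0786), Ube3a (0.0665), Impact (0.106), Trappc9 (0.204), Grb10 (0.206) and Zrsr1 (0.226). Of these, Ube3a, Trappc9 and Grb10 are among the members that fell. The other members that passed were below 0.05 there.

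**Figure D2:**
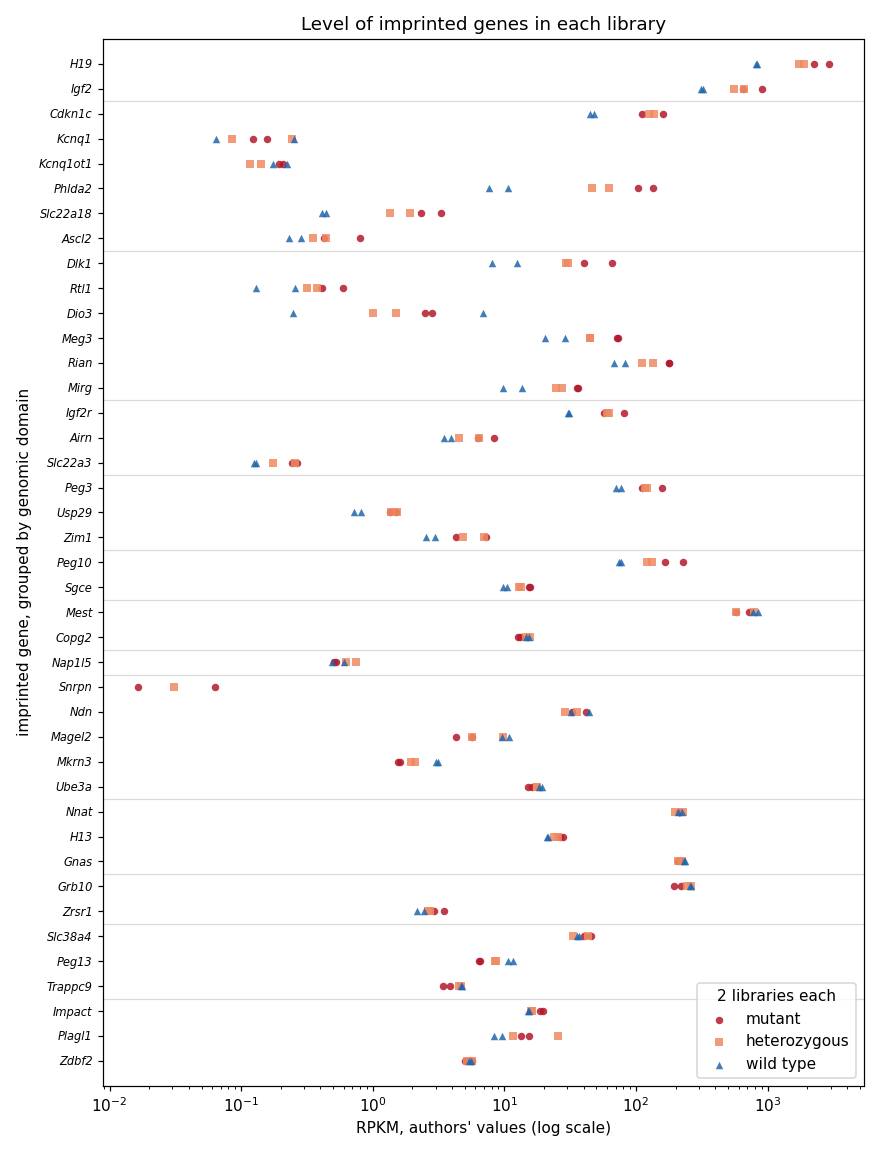
RPKM of each imprinted gene on a log scale (x axis) in the 2 libraries of each genotype, with genes grouped by genomic domain down the page and values of 0 not drawn. In mutant libraries H19 was the most abundant, at 2919 and 2267 RPKM in mutant and 814 and 829 RPKM in wild-type libraries.

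**Figure D3:**
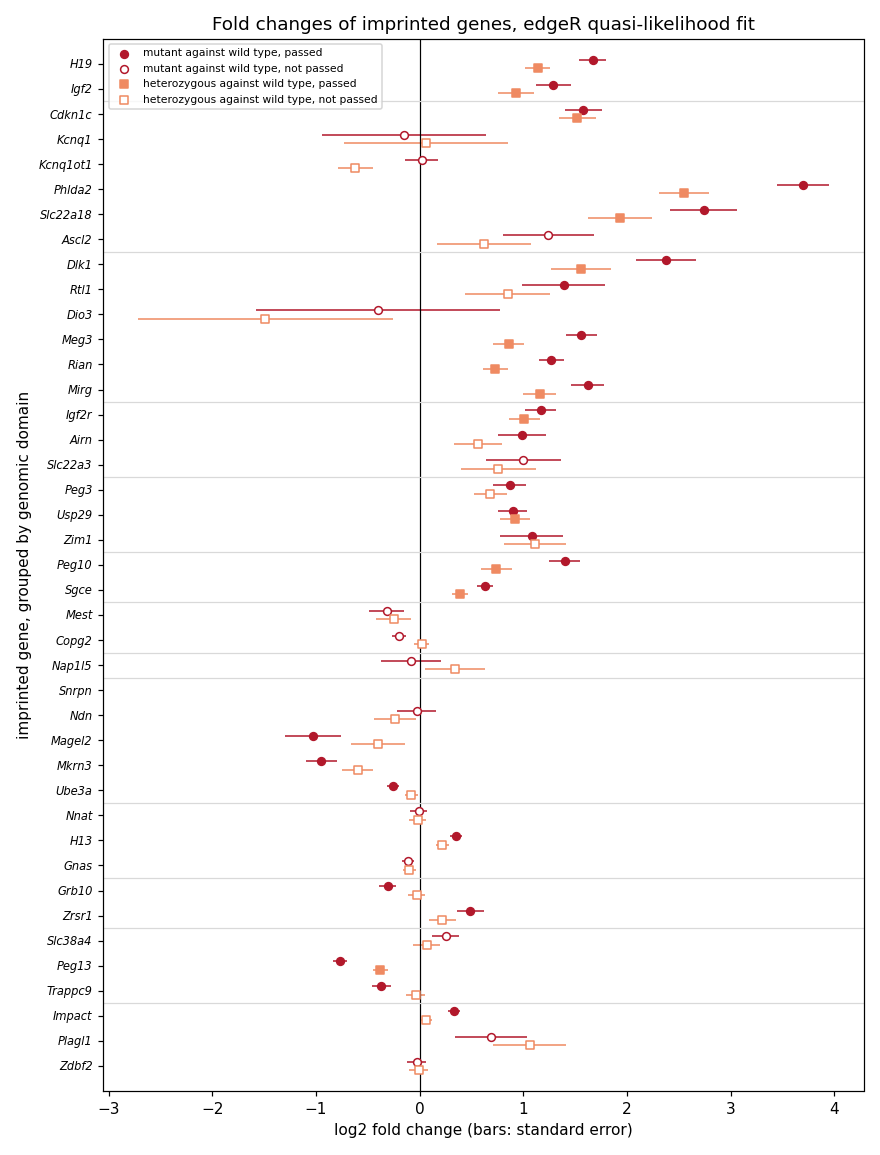
Log2 fold change (x axis, bars are standard errors) of each tested imprinted gene in mutant and in heterozygous against wild-type heads, with filled symbols for those that passed at an adjusted p of 0.05. Phlda2 had the largest log2 fold change among members in both comparisons, 3.70 and 2.55.

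Levels below are RPKM, the authors' values scaled to gene length and library size, and positions are on GRCm38. On distal chromosome 7, H19 (142575530 to 142578146) and Igf2 (142650768 to 142666816) lie next to each other and share enhancers, with H19 read from the maternal and Igf2 from the paternal copy. H19, a noncoding RNA, stood at 2919 and 2267 RPKM in mutant, 1727 and 1874 in heterozygous and 814 and 829 in wild-type libraries. In mutant heads it rose by 1.67 on the log2 scale relative to wild type (SE 0.13, adjusted p = 0.00103). Igf2, a fetal growth factor, stood at 900 and 644 RPKM in mutant, 551 and 656 in heterozygous and 325 and 311 in wild-type libraries. It rose by 1.29 (SE 0.17, adjusted p = 0.00509). For both genes every mutant and heterozygous library lay above both wild-type libraries, and mutant replicate 1 was the highest of the 6. The antisense transcript Igf2os, which overlaps Igf2, was at 22.5 and 16.9 RPKM in mutant and 4.25 and 4.17 in wild-type libraries (2.23, SE 0.15, adjusted p = 0.00068); the sources used here do not give the strand setting of the counting, and reads of the pair may not be separated.

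Both transcripts also carry microRNA hairpins, shown here because H19 and Igf2 are the most abundant of the members that rose. Mature microRNAs are not measured in polyA libraries. The mature sequences below are from RefSeq on GRCm38.p6, written 5′ to 3′ with the seed, bases 2 to 8, in capitals; miR-675 lies within H19 and miR-483 within Igf2, and no seed is shared among the 4 arms.
miR-675-5p: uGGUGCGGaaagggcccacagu
miR-675-3p: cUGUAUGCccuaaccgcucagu
miR-483-5p: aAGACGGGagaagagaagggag
miR-483-3p: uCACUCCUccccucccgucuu

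In the adjacent domain controlled by the paternally expressed noncoding RNA Kcnq1ot1, 3 of the 6 members rose, all 3 maternally expressed. Every member of this domain except Kcnq1ot1 itself is maternally expressed. Phlda2 (143501545 to 143503145), known to limit placental growth, was at 135 and 103 RPKM in mutant, 62 and 46 in heterozygous and 10.7 and 7.65 in wild-type libraries. It rose by 3.70 on the log2 scale (SE 0.25, adjusted p = 0.00076), a fold of 13. Its immediate neighbour Slc22a18, a transporter gene, was at 3.32 and 2.34 RPKM in mutant, 1.9 and 1.34 in heterozygous and 0.409 and 0.443 in wild-type libraries, and rose by 2.74 (SE 0.32, adjusted p = 0.00343). In these 2 genes the mutant, heterozygous and wild-type levels did not overlap and followed that order. Cdkn1c (143458339 to 143461059), which encodes a cyclin-dependent kinase inhibitor, was at 161 and 111 RPKM in mutant, 125 and 138 in heterozygous and 47.5 and 44.3 in wild-type libraries. It rose by 1.58 (SE 0.18, adjusted p = 0.00305), and its mutant and heterozygous levels overlapped.

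Kcnq1ot1 itself was at 0.206 and 0.194 RPKM in mutant, 0.116 and 0.142 in heterozygous and 0.224 and 0.173 in wild-type libraries, a mutant against wild-type log2 fold change of 0.02 (SE 0.16, adjusted p = 0.94); the sign turned to -0.04 when library totals replaced TMM scaling. Kcnq1, a potassium channel gene that overlaps it, had 8 to 27 reads per library and a value of -0.15 (SE 0.79). Ascl2, a trophoblast transcription factor, had 13 to 38 reads per library and did not pass at 1.24 (SE 0.44, adjusted p = 0.0818). These 3 members had adjusted p-values above the threshold.

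The Dlk1-Dio3 domain of chromosome 12 holds paternally expressed coding genes and maternally expressed noncoding RNAs. Dlk1 (109452485 to 109463336), a membrane protein related to Notch ligands, was at 65.1 and 40.3 RPKM in mutant, 30.5 and 29.5 in heterozygous and 12.4 and 7.99 in wild-type libraries, a log2 fold change of 2.38 (SE 0.29, adjusted p = 0.00404). The noncoding RNA Meg3 (109540996 to 109571729) was at 72.2 and 73 RPKM in mutant, 45 and 44.6 in heterozygous and 28.9 and 20.5 in wild-type libraries (1.56, SE 0.15, adjusted p = 0.00214). Genes of either parental copy thus rose side by side in this domain. Rian, which carries small nucleolar RNAs, was at 179 and 178 RPKM in mutant, 135 and 111 in heterozygous and 81.7 and 67.7 in wild-type libraries (1.27, SE 0.12, adjusted p = 0.00196). Mirg, a host of many microRNAs, was at 36 and 35.4 RPKM in mutant, 27.6 and 24.5 in heterozygous and 13.6 and 9.69 in wild-type libraries (1.62, SE 0.16, adjusted p = 0.00229). In the 3 noncoding RNAs the mutant libraries were nearly equal, while Dlk1 was higher in mutant replicate 1.

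Rtl1, a retrotransposon-derived gene of the same domain, was at 0.591 and 0.41 RPKM in mutant, 0.314 and 0.377 in heterozygous and 0.13 and 0.256 in wild-type libraries. It rose by 1.39 (SE 0.40, adjusted p = 0.0481), close to the threshold, and its interval overlaps Meg3 and Rian. Its call was lost without mutant replicate 1 (1.10, adjusted p = 0.202), without mutant replicate 2 (1.62, adjusted p = 0.0824), without wild-type replicate 1 (0.99, adjusted p = 0.145) and without heterozygous replicate 1 or 2 (adjusted p = 0.0745 and 0.078). Dio3, which inactivates thyroid hormone, was at 2.49 and 2.83 RPKM in mutant, 1.5 and 1 in heterozygous and 0.247 and 6.83 in wild-type libraries, and did not pass (-0.40, SE 1.18, adjusted p = 0.824). Its 2 wild-type libraries were the lowest and the highest of the 6. The decidua sum was 4.77 CPM in the low one and 337 CPM in the high one. A link between Dio3 and that sum was not tested.

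On chromosome 17 the maternally expressed receptor gene Igf2r (12682406 to 12769706), whose product clears IGF2 from the cell surface, overlaps the paternally expressed noncoding RNA Airn. Igf2r was at 80.4 and 57.3 RPKM in mutant, 60.5 and 62.7 in heterozygous and 31 and 30.4 in wild-type libraries, and rose by 1.17 (SE 0.15, adjusted p = 0.00499). Airn was at 8.37 and 6.28 RPKM in mutant, 4.52 and 6.36 in heterozygous and 3.9 and 3.5 in wild-type libraries, and rose by 0.99 (SE 0.23, adjusted p = 0.0259). Both were higher in every mutant than in every wild-type library, and unstranded counting would not separate reads where they overlap. The Airn call was lost without mutant replicate 1 (0.77, adjusted p = 0.126), wild-type replicate 1 (1.09, adjusted p = 0.0737) or wild-type replicate 2 (0.90, adjusted p = 0.0833). Slc22a3, an organic cation transporter gene imprinted in placenta, had 16 to 35 reads per library and did not pass (1.00, SE 0.36, adjusted p = 0.0854).

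In the Peg3 domain of proximal chromosome 7 all 3 members rose by similar amounts. Peg3 (6703892 to 6730462), a zinc finger gene, was at 156 and 111 RPKM in mutant, 116 and 121 in heterozygous and 70.1 and 77.3 in wild-type libraries (0.87, SE 0.16, adjusted p = 0.0126). Usp29, which starts beside it on the other strand and is also paternally expressed, was at 1.5 and 1.34 RPKM in mutant, 1.37 and 1.52 in heterozygous and 0.715 and 0.82 in wild-type libraries (0.90, SE 0.14, adjusted p = 0.00864). The maternally expressed Zim1, another zinc finger gene, was at 7.27 and 4.26 RPKM in mutant, 4.81 and 7.04 in heterozygous and 2.97 and 2.54 in wild-type libraries (1.08, SE 0.30, adjusted p = 0.044). In all 3 the heterozygous levels overlapped the mutant ones. The Peg3 call was lost without wild-type replicate 1 (0.81, adjusted p = 0.0549) and the Usp29 call without mutant replicate 1 (0.81, adjusted p = 0.0517). That of Zim1 was lost without mutant replicate 1 (0.64, adjusted p = 0.174), wild-type replicate 1 (1.21, adjusted p = 0.102), wild-type replicate 2 (0.95, adjusted p = 0.132) or heterozygous replicate 1 or 2 (adjusted p = 0.0509 and 0.0533).

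Chromosome 6 holds a domain that rose and another that did not pass. Peg10 (4747306 to 4760517), a retrotransposon-derived gene required in placenta, was at 229 and 167 RPKM in mutant, 121 and 131 in heterozygous and 74.4 and 76.6 in wild-type libraries (1.40, SE 0.15, adjusted p = 0.00267). Sgce, a sarcoglycan gene that starts beside it, was at 15.6 and 15.3 RPKM in mutant, 13.4 and 13 in heterozygous and 10.4 and 9.77 in wild-type libraries (0.63, SE 0.08, adjusted p = 0.00394). Farther along, the paternally expressed Mest, of the hydrolase family, was at 717 and 576 RPKM in mutant, 570 and 784 in heterozygous and 843 and 776 in wild-type libraries, and did not pass (-0.32, SE 0.17, adjusted p = 0.218). Its neighbour Copg2, a coat protein gene, did not pass either (-0.20, SE 0.07, adjusted p = 0.0653). Mest and H19 were the most abundant members in wild-type libraries, and the Mest ranges of the heterozygous and wild-type libraries overlapped. Nap1l5, within an intron of Herc3, had 29 to 42 reads per library and a value of -0.08 (SE 0.29).

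The 6 members that fell were Magel2, Mkrn3 and Ube3a of 1 domain, Peg13 and Trappc9 of another, and Grb10. In the Snrpn domain of central chromosome 7, the counterpart of the human Prader-Willi region, 3 of the 4 members tested fell. Magel2, which acts in protein recycling, was at 4.31 and 5.64 RPKM in mutant, 5.69 and 9.7 in heterozygous and 10.8 and 9.57 in wild-type libraries (-1.03, SE 0.27, adjusted p = 0.0342). Mkrn3, a ubiquitin ligase gene, was at 1.55 and 1.6 RPKM in mutant, 1.95 and 2.09 in heterozygous and 3.03 and 3.1 in wild-type libraries (-0.95, SE 0.15, adjusted p = 0.00781). In Mkrn3 no 2 genotypes overlapped. Ube3a, a ubiquitin ligase gene imprinted in neurons only, was at 16.1 and 15 RPKM in mutant, 17.8 and 17.6 in heterozygous and 18.2 and 19.2 in wild-type libraries (-0.26, SE 0.06, adjusted p = 0.024). Ndn, a gene of postmitotic neurons that lies beside Magel2, did not pass, at 32.8 and 41.5 RPKM in mutant, 28.9 and 35.7 in heterozygous and 44 and 32.2 in wild-type libraries (-0.03, SE 0.19, adjusted p = 0.92). Its wild-type range covered both mutant libraries.

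The Magel2 call was lost without any 1 of the mutant and wild-type libraries (adjusted p = 0.161 and 0.0724 without mutant replicates 1 and 2, 0.116 and 0.061 without wild-type replicates 1 and 2), at log2 fold changes of -1.24 to -0.85 over the alternatives. That of Mkrn3 was lost without mutant replicate 1 (-0.92, adjusted p = 0.0519). That of Ube3a was lost without mutant replicate 2 or either wild-type replicate (adjusted p = 0.0878, 0.0736 and 0.0866). Snrpn had 5 and 1 reads in mutant, 2 and 0 in heterozygous and 0 and 0 in wild-type libraries. Snurf, which overlaps it, had 1 to 6 reads.

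On chromosome 15, Peg13, a paternally expressed noncoding RNA within Trappc9, was at 6.45 and 6.53 RPKM in mutant, 8.45 and 8.62 in heterozygous and 10.7 and 11.7 in wild-type libraries. It fell by 0.77 on the log2 scale (SE 0.07, adjusted p = 0.00193), with the genotypes separate and in that order. The host gene Trappc9, a vesicle transport gene with maternal bias in brain, was at 3.83 and 3.43 RPKM in mutant, 4.5 and 4.68 in heterozygous and 4.8 and 4.67 in wild-type libraries (-0.37, SE 0.09, adjusted p = 0.0291). Its call was lost without mutant replicate 1, mutant replicate 2, wild-type replicate 1 or wild-type replicate 2 (adjusted p = 0.0619, 0.117, 0.124 and 0.0731). Slc38a4, an amino acid transporter gene on the same chromosome, did not pass, at 45.5 and 40.3 RPKM in mutant, 33.2 and 42.8 in heterozygous and 35.4 and 37 in wild-type libraries (0.25, SE 0.13, adjusted p = 0.183).

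The remaining members changed little or did not pass. Grb10, which encodes an adaptor of insulin and IGF receptors and uses the paternal copy in neurons and the maternal one elsewhere, was at 221 and 195 RPKM in mutant, 244 and 261 in heterozygous and 258 and 260 in wild-type libraries (-0.31, SE 0.08, adjusted p = 0.0301). H13, a signal peptide peptidase gene, was at 27.7 and 26.2 RPKM in mutant, 25.6 and 23.9 in heterozygous and 20.9 and 21.6 in wild-type libraries (0.35, SE 0.06, adjusted p = 0.00888). Impact, a regulator of translation under stress, was at 19.7 and 18.5 RPKM in mutant, 16.1 and 15.8 in heterozygous and 15.4 and 15.1 in wild-type libraries (0.33, SE 0.06, adjusted p = 0.0152). In these 3 genes the mutant libraries did not overlap the wild-type ones. Zrsr1, a splicing factor gene within Commd1, was at 2.94 and 3.47 RPKM in mutant, 2.72 and 2.62 in heterozygous and 2.17 and 2.43 in wild-type libraries (0.49, SE 0.13, adjusted p = 0.0356), and its call was lost on leaving out any 1 of the 6 libraries (adjusted p = 0.0598 to 0.159). The Grb10 call was lost without mutant replicate 2 or either wild-type replicate (adjusted p = 0.087, 0.107 and 0.0732), that of H13 without wild-type replicate 1 (adjusted p = 0.0501) and that of Impact without mutant replicate 1 or either wild-type replicate (adjusted p = 0.0826, 0.0551 and 0.063).

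Plagl1, a zinc finger factor known to activate other imprinted genes, was at 15.3 and 13.3 RPKM in mutant, 11.6 and 25.7 in heterozygous and 9.64 and 8.27 in wild-type libraries, and did not pass (0.69, SE 0.35, adjusted p = 0.19). Heterozygous replicate 2 was the highest of the 6. Without heterozygous replicate 1 or 2 the mutant value of 0.68 passed (adjusted p = 0.0175 and 0.0182). The neuronal gene Nnat was at 213 and 213 RPKM in mutant, 198 and 227 in heterozygous and 207 and 223 in wild-type libraries (-0.01, SE 0.08). Gnas, which encodes the stimulatory G protein subunit, was at 223 and 207 RPKM in mutant, 209 and 225 in heterozygous and 231 and 237 in wild-type libraries (-0.11, SE 0.06, adjusted p = 0.226). Zdbf2 was at 4.98 to 5.69 RPKM in all 6 libraries. The transcripts of Gnas that differ in imprinting share exons and are counted together here.

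Heterozygous heads were compared with the same wild-type libraries. Of the 40 members tested 13 rose and 1, Peg13, fell, beside 6.56% of all genes (6.03% higher and 0.533% lower). All 14 also passed in mutant against wild type, a comparison that shares the wild-type libraries. The log2 fold changes were 2.55 (SE 0.24, adjusted p = 0.00519) for Phlda2, 1.93 for Slc22a18, 1.56 for Dlk1, 1.52 (SE 0.18, adjusted p = 0.0087) for Cdkn1c and 1.14 (SE 0.12, adjusted p = 0.00785) for H19. Mirg stood at 1.16, Igf2r at 1.01, Igf2 at 0.93, Usp29 at 0.92, Meg3 at 0.86, Peg10 at 0.74, Rian at 0.73, Sgce at 0.39 and Peg13 at -0.38, with adjusted p-values from 0.0165 to 0.0442. Cdkn1c, H19 and Phlda2 passed under all 13 alternatives other than the files as attached, and the other 11 lost the call in at least 1. The member count was 4 without heterozygous replicate 1, 6 without heterozygous replicate 2, 8 without wild-type replicate 1 and 7 without wild-type replicate 2. It was 11 without mutant replicate 1 and 11 without mutant replicate 2, and 6 with a term for high Xist. Kcnq1ot1 had its lowest levels in both heterozygous libraries, and its value of -0.62 (SE 0.17, adjusted p = 0.0952) did not pass, whereas it passed in DESeq2 (-0.62, adjusted p = 0.0295).

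Between mutant and heterozygous heads no member passed the threshold in edgeR's test. In edgeR's quasi-likelihood test 0 of 40 passed, beside 0.435% of all genes, while 16 members had an unadjusted p under 0.05. DESeq2 passed 9 members, 7 higher and 2 lower, and limma-trend passed 0. For 24 of the 26 members that passed in mutant against wild type, the heterozygous mean lay between the mutant and wild-type means. The exceptions were Usp29 and Zim1. Selecting members with separate mutant and wild-type levels favours a mean in between, and the share over all genes was not computed. Phlda2 had a mutant against heterozygous value of 1.15 (SE 0.22, adjusted p = 0.0889), Meg3 of 0.70 (SE 0.15, adjusted p = 0.0977) and Peg13 of -0.39 (SE 0.07, adjusted p = 0.0868). Without wild-type replicate 1 or 2, Meg3 passed (adjusted p = 0.0161 and 0.0156). Cdkn1c had a value of 0.05 (SE 0.17, adjusted p = 0.885), which turned to -0.24 without mutant replicate 1. Of the 26 members that passed in mutant against wild type, Igf2, Cdkn1c, Igf2r, Airn, Peg3, Usp29 and Zim1 had overlapping mutant and heterozygous levels. The other 19 did not overlap, with mutant libraries above in 13 and below in 6. The 26 were selected by a test on the same mutant libraries, so their share cannot be set against that of all genes. Over all 40 members tested, 23 did not overlap (57.5%), near the 54.1% of all genes tested.

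**Figure D4:**
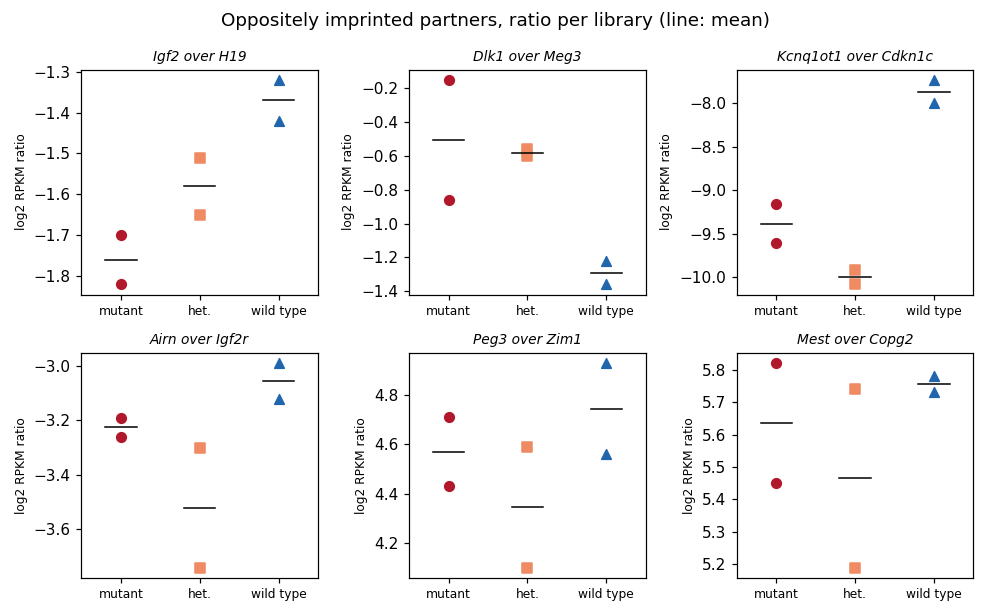
Log2 ratio of RPKM (y axis, scale set per panel) of 6 pairs of oppositely imprinted neighbours in each library, with points for the 2 libraries of a genotype and a line at their mean. Igf2 over H19 was lower, at -1.70 and -1.82 in mutant and -1.32 and -1.42 in wild-type libraries, and Dlk1 over Meg3 higher, at -0.15 and -0.86 in mutant and -1.22 and -1.36 in wild-type libraries.

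Ratios of RPKM within a library do not depend on how libraries are scaled to each other, and they compare levels per length. They are given as a description, with no test. The log2 ratio of Igf2 to H19 averaged -1.76 ± 0.08 in mutant, -1.58 ± 0.09 in heterozygous and -1.37 ± 0.07 in wild-type libraries (SD, n = 2 each). H19 was thus 3.25 and 3.52 times as abundant as Igf2 in mutant and 2.5 and 2.67 times in wild-type libraries. The log2 ratio of Dlk1 to Meg3 averaged -0.50 ± 0.50 in mutant, -0.58 ± 0.03 in heterozygous and -1.29 ± 0.10 in wild-type libraries. In this pair the partner with the larger relative rise was the paternally expressed one, and in Igf2 and H19 it was the maternally expressed one. Kcnq1ot1 to Cdkn1c averaged -9.38 ± 0.32 in mutant, -10.00 ± 0.11 in heterozygous and -7.86 ± 0.19 in wild-type libraries. Airn to Igf2r averaged -3.23 ± 0.05 in mutant, -3.52 ± 0.31 in heterozygous and -3.05 ± 0.09 in wild-type libraries, so the heterozygous ratio was not between the others. For Peg3 to Zim1 and for Mest to Copg2 the mutant and wild-type ranges overlapped.

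Promoter sequences are shown for 5 members: Phlda2, Igf2, Meg3 and Zim1, which rose, and Mest, which did not pass. They are RefSeq's on GRCm38.p6, 250 bases before to 50 bases after a listed start, printed 5′ to 3′ on the gene's strand. Capitals mark TGCCGC or its reverse complement GCGGCA, the hexamer that the zinc finger protein ZFP57 binds when it is methylated, to protect imprints. The Phlda2 window is chr7:143502475-143502774, minus strand, that of Igf2 chr7:142661222-142661521, minus strand, that of Meg3 chr12:109540746-109541045, plus strand, that of Zim1 chr7:6696383-6696682, minus strand, and that of Mest chr6:30737800-30738099, plus strand.
Phlda2: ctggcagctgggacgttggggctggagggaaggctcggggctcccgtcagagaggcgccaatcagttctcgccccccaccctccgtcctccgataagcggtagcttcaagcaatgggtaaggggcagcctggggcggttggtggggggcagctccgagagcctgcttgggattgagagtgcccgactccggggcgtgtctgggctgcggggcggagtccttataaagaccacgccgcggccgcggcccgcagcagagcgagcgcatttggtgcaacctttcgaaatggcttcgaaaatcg
Igf2: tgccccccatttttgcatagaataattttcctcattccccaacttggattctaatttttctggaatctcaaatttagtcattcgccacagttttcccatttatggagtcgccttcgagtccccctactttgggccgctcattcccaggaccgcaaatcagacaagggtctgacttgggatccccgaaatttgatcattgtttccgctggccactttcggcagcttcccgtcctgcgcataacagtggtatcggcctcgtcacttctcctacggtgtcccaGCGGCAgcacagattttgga
Meg3: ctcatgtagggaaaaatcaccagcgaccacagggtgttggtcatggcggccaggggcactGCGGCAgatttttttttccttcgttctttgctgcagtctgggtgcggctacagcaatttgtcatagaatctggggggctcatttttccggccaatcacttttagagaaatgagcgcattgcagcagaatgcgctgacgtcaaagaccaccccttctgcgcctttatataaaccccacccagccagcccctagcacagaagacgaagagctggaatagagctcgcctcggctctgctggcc
Zim1: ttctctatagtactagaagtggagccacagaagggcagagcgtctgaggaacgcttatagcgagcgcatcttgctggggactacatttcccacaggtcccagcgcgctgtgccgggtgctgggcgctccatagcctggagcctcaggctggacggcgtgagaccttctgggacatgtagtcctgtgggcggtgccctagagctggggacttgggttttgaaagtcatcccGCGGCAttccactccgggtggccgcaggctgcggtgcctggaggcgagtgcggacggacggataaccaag
Mest: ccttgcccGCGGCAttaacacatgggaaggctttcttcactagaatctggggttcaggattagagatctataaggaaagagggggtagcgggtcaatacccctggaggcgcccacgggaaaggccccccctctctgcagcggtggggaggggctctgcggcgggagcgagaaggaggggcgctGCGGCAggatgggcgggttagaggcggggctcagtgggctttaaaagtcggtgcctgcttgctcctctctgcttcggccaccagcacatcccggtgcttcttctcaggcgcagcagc

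The Phlda2 window holds no match and 26 CpG dinucleotides, those of Igf2, Meg3 and Zim1 hold 1 match each, and that of Mest holds 2. For Igf2, Meg3 and Mest the window printed is one that holds the hexamer. The 3 other Igf2 windows, the other Meg3 window and 1 of the 3 Mest windows hold none. Igf2, Meg3 and Zim1 are the only members that rose with the hexamer in any listed window, so the sequences shown are not typical of those members. The windows of Slc22a18, Dlk1, Rian, Mirg, Igf2r, Airn, Peg3, Usp29, H13 and Zrsr1 hold none. Zdbf2, Nnat, Copg2, Nap1l5, Plagl1 and Grb10, which did not rise, have a window with it. Of the 41 members 32 have an entry, with 48 promoter windows, of which 12 (25%) hold the hexamer on either strand, beside 11.6% of all 32851 windows. The median CpG count was 13.5 per window in members and 7 in all windows. A match is a run of letters and not a measured binding site.

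**Figure D5:**
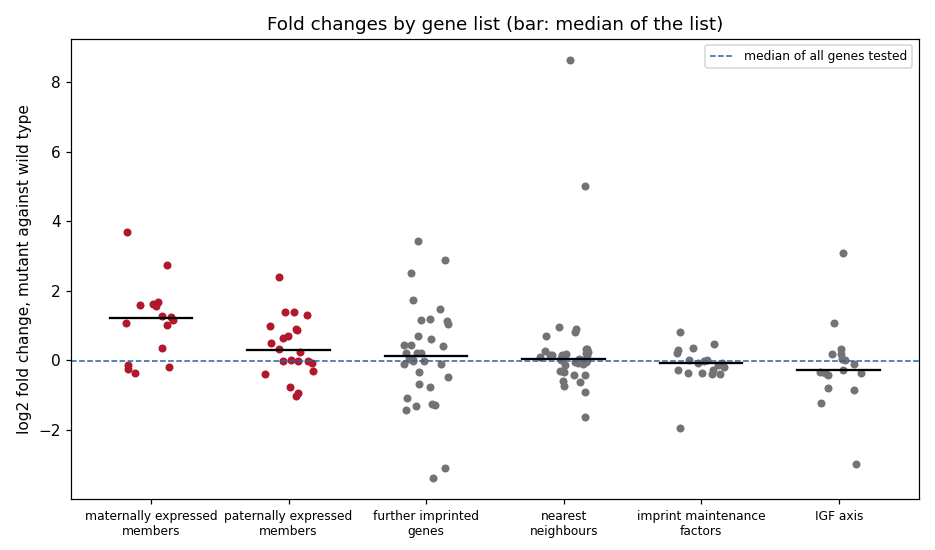
Log2 fold change in mutant against wild-type heads (y axis) of each tested gene in 6 lists, with a bar at the median of the list and a dashed line at the median of all genes tested (-0.02). The medians were 1.21 for maternally and 0.29 for paternally expressed members and 0.05 for the nearest neighbours outside the imprinted lists.

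The nearest tested genes on either side of the 18 loci, leaving out imprinted and microRNA genes, gave 36 neighbours, of which 9 rose and 4 fell (36.1%, median log2 fold change 0.05) beside 30.6% of all genes. Around the distal chromosome 7 genes, Mrpl23 on the H19 side had a value of 0.07 (SE 0.07, adjusted p = 0.43) and Cars on the Phlda2 side -0.05 (SE 0.08, adjusted p = 0.678). Next to the Dlk1-Dio3 domain, Wdr25 had -0.35 (adjusted p = 0.191) and Ppp2r5c fell by 0.32 (SE 0.05, adjusted p = 0.00819). The largest neighbour change was that of Plg, the plasminogen gene beside Slc22a3, at 8.64 (SE 0.62, adjusted p = 0.000879). It is a plasma protein gene, and the visceral endoderm sum was 5598 and 4674 CPM in mutant against 162 and 174 CPM in wild-type libraries. A link between Plg and that sum was not tested.

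A list of 38 further imprinted genes left 34 that could be tested, and 9 of these rose while 6 fell, at a median of 0.11 on the log2 scale. That is 44.1% of those tested, beside 30.6% of all genes. Ddc, a decarboxylase gene beside Grb10, was at 8.27 and 6.85 RPKM in mutant and 1.42 and 1.24 in wild-type libraries (2.51, SE 0.16, adjusted p = 0.000646). Klf14 rose by 2.87 (SE 0.28, adjusted p = 0.00206) and Pon2 by 0.61 (SE 0.11, adjusted p = 0.0121). Osbpl5, a lipid transfer gene of the Kcnq1ot1 domain, was at 0.258 and 0.273 RPKM in mutant, 1.94 and 1.73 in heterozygous and 1.93 and 2.63 in wild-type libraries (-3.09, SE 0.22, adjusted p = 0.000884). It also passed in mutant against heterozygous (-2.78, SE 0.22, adjusted p = 0.0135). Osbpl5 lies beyond Phlda2, which moved the other way. Peg12, of the Snrpn domain, fell by 1.26 (SE 0.16, adjusted p = 0.00461), and Dhcr7 by 0.49 (SE 0.08, adjusted p = 0.00853).

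Among factors that maintain or remove imprints 19 were tested; 2 rose and 6 fell, with -0.09 as the median on the log2 scale. The share that passed was 42.1%, beside 30.6% of all genes. Zfp57, which encodes the hexamer-binding protein and was chosen after its values were seen, was at 11.8 and 12 RPKM in mutant and 9.89 and 9.64 in wild-type libraries (0.29, SE 0.08, adjusted p = 0.0407). The other gene that rose, Dnmt3a, had a smaller p (0.22, SE 0.06, adjusted p = 0.0377). The maintenance methyltransferase gene Dnmt1 fell by 0.27 (SE 0.05, adjusted p = 0.0125), its partner Uhrf1 by 0.39 (SE 0.05, adjusted p = 0.004) and the imprint-binding zinc finger gene Zfp445 by 0.29 (SE 0.04, adjusted p = 0.00593). Ezh2, a Polycomb methyltransferase gene, fell by 0.37 (SE 0.04, adjusted p = 0.00284) and the histone demethylase gene Kdm1b by 0.39 (SE 0.10, adjusted p = 0.0317). The largest change was in Tet1, a methylcytosine oxidase gene, at 1.19 and 1.02 RPKM in mutant, 4.17 and 4.04 in heterozygous and 4.42 and 4.14 in wild-type libraries (-1.94, SE 0.10, adjusted p = 0.000417). Tet1 also passed in mutant against heterozygous (-1.89, SE 0.10, adjusted p = 0.00288) and did not pass in heterozygous against wild type (-0.06).

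In the axis through which Igf2 acts, 1 of the 17 genes tested rose while 5 fell, and the median was -0.27 on the log2 scale. The share that passed, 35.3%, was near the 30.6% of all genes. The receptor genes Igf1r and Insr fell by 0.33 (SE 0.09, adjusted p = 0.0368) and 0.43 (SE 0.08, adjusted p = 0.0152), while the clearance receptor gene Igf2r, among the members, rose by 1.17. Insr was highest in heterozygous libraries, at 7 and 7.13 RPKM, beside 5.51 and 5.97 in wild-type libraries. It also passed in mutant against heterozygous (-0.73, SE 0.08, adjusted p = 0.0434). Igf2bp3, which encodes an Igf2 mRNA-binding protein, fell by 0.37 (SE 0.06, adjusted p = 0.00928). The binding protein gene Igfbp5 was at 83 and 69.2 RPKM in mutant and 132 and 136 in wild-type libraries (-0.81, SE 0.23, adjusted p = 0.0443). Igfbp1, known from liver and yolk sac, was at 0.713 and 0.627 RPKM in mutant and 0.0958 and 0.0562 in wild-type libraries (3.09, SE 0.46, adjusted p = 0.00716), and the protease gene Pappa2 at 0.0216 and 0.0397 RPKM in mutant and 0.206 and 0.279 in wild-type libraries (-2.98, SE 0.57, adjusted p = 0.0141).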

How the data were processed

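The authors deposited raw counts per gene symbol for each library, and a table with RPKM values, log2 fold changes, p-values and false discovery rates of their own; from that table only the RPKM values were used, apart from the false discovery rates given for members in mutant against wild type. Tools named in the submitters' processing notes are Trim Galore 0.4.0, TopHat2 2.0.11, HTSeq 0.6.1p2 and edgeR 3.8.6, with the build mm10; no annotation or strand setting was found in labels or headers. The share of read pairs outside any feature was 8.93% to 10.5%, that of ambiguous pairs 1.04% to 1.08%, and the 5 summary lines of each file were left out. Each count file was assigned to the sample whose titled RPKM column has the same zeros and, for genes above 50 counts, a constant ratio to the counts within 0.1%. The assignment as attached was run as an alternative.

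The tests used edgeR 4.0.16 (R 4.3.3; glmQLFit, glmQLFTest, TMM, filterByExpr) on all 6 libraries together, which leaves 3 residual degrees of freedom. Standard errors were obtained from each fold change and its F statistic (F being the squared ratio of change to error). Alternatives were DESeq2 1.42.0, limma 3.58.1 on log2(RPKM + 0.1), other scalings, no filter, pairwise fits, a term for Xist and leaving out each library. The procedure was tested on simulated counts with the same spread for every gene, unlike the data. It recovered 47% of 2-fold and 99% of 4-fold changes in mutant against wild type, with 6 false calls among 152. A member that did not pass may therefore still differ. Members and all lists (further imprinted genes, imprint factors, IGF axis, tissue markers) were chosen with earlier results of these data known. Values per library are given for members that passed and for 12 members chosen whatever their test result. They are also given for some others that did not pass, such as Dio3 and Ndn. Of the further imprinted genes, imprint factors and IGF axis, up to 6 genes per list with the smallest p are named. Zfp57 and Dnmt3a are named in addition.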

Additional observations from a re-analysis of the deposited data

How the results depend on the processing

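No paired analysis was possible because the labels give the groups no shared replicate numbers. With files as attached, 0 members and 0 genes passed in any of the 3 comparisons, and signs turned. On the log2 scale, mutant against wild type then gave -0.28 for H19, -0.37 for Igf2, -0.43 for Cdkn1c, -0.23 for Kcnq1ot1, -0.41 for Phlda2, -0.43 for Slc22a18, -0.69 for Dlk1, -0.12 for Rtl1, -0.12 for Meg3, -0.09 for Rian, -0.14 for Mirg, -0.35 for Igf2r, -0.33 for Airn, -0.27 for Peg3, -0.05 for Usp29, -0.6 for Zim1, -0.32 for Peg10, -0.05 for Sgce, 0.01 for Magel2, 0.04 for Mkrn3, -0.03 for H13, 0.09 for Peg13, -0.07 for Impact and -0.21 for Plagl1. Heterozygous against wild type gave -0.06 for H19, -0.03 for Igf2, -0.44 for Phlda2, -0.21 for Slc22a18, -0.38 for Dlk1, -0.18 for Meg3, -0.09 for Rian, -0.18 for Airn, -0.28 for Peg10 and 0.07 for Grb10. Mutant against heterozygous gave -0.22 for H19, -0.34 for Igf2, -0.76 for Cdkn1c, -0.31 for Dlk1, -0.49 for Igf2r, -0.15 for Airn and -0.32 for Peg3. These reversals follow from the exchange of a mutant with a wild-type library.

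For mutant against wild type, 26 members and 4654 genes passed; with a term for Xist it was 16 and 2500, and leaving out 1 library gave 16 to 24 and 1997 to 4265. For heterozygous against wild type, 14 members and 997 genes passed; with a term for Xist it was 6 and 516, DESeq2 passed 1890 genes, and leaving out 1 library gave 4 to 11 and 313 to 748. For mutant against heterozygous, 0 members and 66 genes passed; DESeq2 passed 9 and 1313, the pairwise fit 1 and 106, no filter 182 genes, a term for Xist 4 genes, and leaving out 1 library gave 0 to 1 and 11 to 81. In mutant against wild type, the term for Xist removed the calls of Airn, Grb10, H13, Impact, Magel2, Peg3, Rtl1, Trappc9, Ube3a, Zim1 and Zrsr1. The cause of these shifts was not tested. In mutant against wild type, Kcnq1ot1 also changed sign (-0.04 with library totals, -0.02 without mutant replicate 1, -0.17 without wild-type replicate 2). Without wild-type replicate 1 it was 0.23, with the sign of the main fit. Grb10 changed sign in heterozygous against wild type (0.02 without heterozygous replicate 1). In mutant against heterozygous, signs changed for Cdkn1c (-0.24 without mutant replicate 1, -0.03 without heterozygous replicate 1). Igf2r and Peg3 changed sign there too (-0.10 and -0.08 without mutant replicate 1). So did Mest (0.06 with a term for Xist, 0.08 without mutant replicate 2, 0.18 without heterozygous replicate 2) and Plagl1 (0.30 without heterozygous replicate 2). Without mutant replicate 2, Cdkn1c, Igf2r and Peg3 kept their sign (0.29, 0.38 and 0.4). Plagl1 kept its sign without heterozygous replicate 1 (-0.85). Depth limits Kcnq1, Ascl2, Slc22a3, Nap1l5 and Snrpn.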
